A study of Mus musculus with 2 samples.

Results

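Transcripts of 10 genes of the AP-1 and immediate early group were followed in tumour endothelial cells (ECs): Fos, Fosb, Fosl1, Fosl2, Jun, Junb, Jund, Atf3, Egr1 and Ier2. They were chosen by name, and all 10 are listed among the 17139 genes of both libraries. The measurements are droplet-based single-cell RNA-seq of CD31+ ECs sorted by FACS, with a gate that took live CD45- cells, from implanted Lewis lung carcinoma (LLC) tumours, with 1 library after intratumoural injection of PBS and 1 after injection of cGAMP. The mice were adult C57BL/6 per the labels, and male C57BL/6 J per the methods, and each library came from 1 mouse. LLC is a carcinoma line of this mouse strain, and cGAMP is a cyclic dinucleotide that binds the adaptor protein STING. The injections were made into the tumour, so that all cells of the tumour, and not the ECs alone, could meet the agonist. The time of sampling differs between the methods and a supplementary legend, and the version of the droplet kit differs between the labels and the methods.

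AP-1 is a family of transcription factors that bind DNA as pairs of proteins through a basic region and a leucine zipper. A Fos protein needs a Jun partner, whereas Jun proteins can also pair with each other or with members of the ATF family. Most of these genes are transcribed within minutes of a stimulus such as a growth factor, a cytokine, shear stress or the handling of cells, without need of new protein, which gives the group its name of immediate early genes. Their transcripts are short-lived. In ECs they are known from the response to flow, wounding, inflammation and angiogenic factors.

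The PBS library held 2517 ECs with 92081146 unique molecular identifiers (UMIs, each a counted transcript), and the cGAMP library 1340 ECs with 63366746 UMIs. The median cell had 29780 and 41178 UMIs, of which a median of 4.49% and 2.87% were mitochondrial. Pecam1, which encodes CD31, was found in 2509 and 1335 of the cells, and all 9 endothelial identity genes examined were present in both libraries. Of 13 leucocyte markers 11 are listed, and all 11 were higher in the cGAMP library, with a summed level of 23.9 CPM (UMIs of the genes per 1000000 UMIs of the library) after PBS and 84.2 CPM after cGAMP. The libraries shared 1 cell barcode. With 1 mouse for each condition there is no spread between animals, no test was possible, and an effect of cGAMP cannot be told apart from a difference between 2 animals or 2 preparations. All intervals below are exact 95% intervals and cover counting error only. For levels they leave out the spread between cells, which was wider than counting noise for the 10 genes together, as given below. Intervals of levels that lie apart therefore do not settle an order of clusters.

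The stretches of DNA before the transcription starts are shown for 5 of the genes, those in which the letters marked below were found. They are the last 150 bases before the start in RefSeq, on GRCm38.p6, read 5′ to 3′ along the strand of the gene. Fos lies on the plus strand at chr12:85473740-85473889, Fosb on the minus strand at chr7:19310046-19310195, Jun on the minus strand at chr4:95052223-95052372, Junb on the minus strand at chr8:84978749-84978898 and Atf3 on the minus strand at chr1:191183334-191183483. The Atf3 window lies within the span of the gene, 191170296 to 191218039. It therefore precedes a start inside that span and not the outer end of the gene. Capitals mark the letters TGACG, the core of the cAMP response element (CRE) bound by ATF and CREB proteins, on either strand, and in Jun the related letters TGACATCA.
Fos: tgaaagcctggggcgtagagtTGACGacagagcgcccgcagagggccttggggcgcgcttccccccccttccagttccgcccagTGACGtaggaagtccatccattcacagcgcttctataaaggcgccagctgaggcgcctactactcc
Fosb: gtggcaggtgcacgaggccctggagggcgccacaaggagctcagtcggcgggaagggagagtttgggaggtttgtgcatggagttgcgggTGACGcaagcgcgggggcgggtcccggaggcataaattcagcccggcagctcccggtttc
Jun: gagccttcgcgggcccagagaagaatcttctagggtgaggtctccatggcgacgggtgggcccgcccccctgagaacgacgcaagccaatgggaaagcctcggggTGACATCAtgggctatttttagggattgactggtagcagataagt
Junb: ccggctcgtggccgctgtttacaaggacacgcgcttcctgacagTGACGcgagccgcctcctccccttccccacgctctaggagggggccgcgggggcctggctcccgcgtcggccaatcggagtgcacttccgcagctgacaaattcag
Atf3: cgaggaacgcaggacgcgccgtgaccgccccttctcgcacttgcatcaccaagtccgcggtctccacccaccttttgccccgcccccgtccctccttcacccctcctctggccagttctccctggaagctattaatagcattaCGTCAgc

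RefSeq windows were held for 7 of the 10 genes, those other than Fosl1, Egr1 and Ier2, and the 250 bases before the start were searched on both strands. The core TGACG was present in 4 of the 7, in Fos at 2 places, and in 17.8% of the 32851 windows searched. Jun held TGACATCA, as did 2.93% of windows. Jund and Fosl2 held neither. The full CRE, TGACGTCA, which contains the core, was in none of the 7 and in 1.55% of windows, and the AP-1 site TGACTCA was in none of the 7 and in 4.46% of windows. The EGR site GCGGGGGCG was in the windows of Fosb and Fosl2 and in 2.57% of all, the TATA box TATAAA in that of Fos and in 12.4% of all, and the CArG box bound by serum response factor in none of the 7 and in 1.47% of all. These are matches of letters in a short window and were not tested for binding.

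The Fos family gave 4 different pictures in the ECs as a whole. Levels below are CPM over all cells of a library. Fos, the founding member, on chromosome 12 of GRCm38 from 85473890 to 85477273, was at 649 CPM (interval 644 to 654) after PBS and at 863 CPM (856 to 871) after cGAMP, a log2 ratio of 0.41 (0.39 to 0.43). Fosb, which shares the activation domains of Fos, on chromosome 7 from 19302696 to 19310051, was at 384 CPM (380.3 to 388) and 343 CPM (338 to 347), a log2 ratio of -0.16 (-0.19 to -0.14). Fosl2, encoding the later and weaker partner Fra-2, on chromosome 5 from 32135801 to 32157842, was at 118 CPM (116 to 120.4) and 80.7 CPM (78.5 to 82.9), a log2 ratio of -0.55 (-0.60 to -0.50). Fosl1, encoding Fra-1, on chromosome 19 from 5447547 to 5455946, rested on only 510 and 686 UMIs, or 5.54 CPM (5.07 to 6.04) and 10.8 CPM (10.0 to 11.7), a log2 ratio of 0.97 (0.80 to 1.14). Counting intervals of the 2 libraries did not overlap for any of the 4 genes.

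Of the Jun family, Junb was higher after cGAMP, while Jun and Jund were nearly level. Junb, whose product often restrains that of Jun, lies on chromosome 8 from 84974484 to 84978718. It was at 779.5 CPM (774 to 785) after PBS and 964 CPM (956 to 972) after cGAMP, a log2 ratio of 0.31 (0.29 to 0.32). Jun, on chromosome 4 from 95049034 to 95052222, was at 954 CPM (948 to 961) and 914 CPM (906 to 921), a log2 ratio of -0.06 (-0.08 to -0.05). Jund, the least inducible of the 3 in most cells, on chromosome 8 from 70698949 to 70700616, was at 915 CPM (909 to 922) and 898 CPM (890.3 to 905), a log2 ratio of -0.03 (-0.04 to -0.01). The signs of Jun and Jund turned when all genes were scaled by the median of their ratios, to 0.0065 and 0.041, and also among cells with 20000 to 60000 UMIs, to 0.0058 and 0.057.

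Atf3 and Egr1 were higher after cGAMP by a similar factor, and Ier2 was nearly level. Atf3, a stress-induced member of the ATF family on chromosome 1 from 191170296 to 191218039, was at 278 CPM (274 to 281) and 357 CPM (353 to 362), a log2 ratio of 0.36 (0.34 to 0.39). Egr1, a zinc finger factor induced through serum response factor, was at 279 CPM (276 to 283) and 363 CPM (358 to 368), a log2 ratio of 0.38 (0.35 to 0.40). Ier2, a small nuclear protein on chromosome 8 from 84661331 to 84662852, was at 263 CPM (259.8 to 266) and 273 CPM (269 to 277), a log2 ratio of 0.05 (0.03 to 0.08), and turned to -0.0043 with the proportions of cell clusters held equal.

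With a fold of 1.5 standing in for a call, 1 of the 10 genes, Fosl1, was higher after cGAMP, and none was lower. Of the 9509 genes that reached 5 CPM in the PBS or the cGAMP library, 4.53% were higher by this fold and 7.41% lower, and a single gene in 10 gives no reading against these shares. Under the median scaling the genes past this fold were nearly even, with 547 higher and 541 lower, against 431 and 705. Fosl2, 1.47-fold lower, lay just under the fold. The median log2 ratio was 0.18 over the 10 genes and -0.08 over the 9509. Together the 10 genes had 4627 CPM (4613 to 4641) after PBS and 5066 CPM (5049 to 5084) after cGAMP, a log2 ratio of 0.13.

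**Figure D1:**
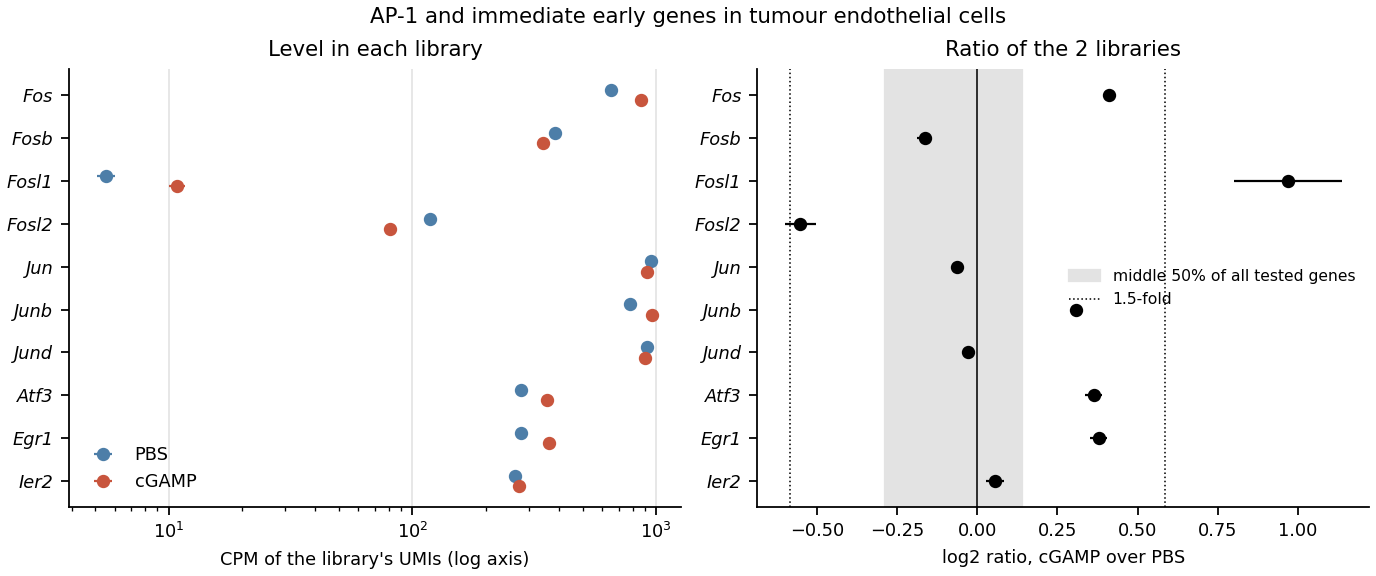
Left, level of each gene in CPM on a log axis in the PBS (blue) and cGAMP (red) libraries. Right, log2 ratio of cGAMP over PBS, with the middle 50% of all tested genes in grey and a 1.5-fold difference as dotted lines. Bars are exact 95% counting intervals, 1 library for each condition. Fosl1 is the gene beyond the upper line at 0.97, and Fosl2 lies just inside the lower one at -0.55.

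The make-up of the Fos family differed between the libraries. Fos UMIs made up 56.1% (interval 55.8 to 56.4) of the family after PBS and 66.5% (66.2 to 66.9) after cGAMP. The part of Fosb was 33.2% (32.9 to 33.5) and 26.4% (26.1 to 26.7), and that of Fosl2 was 10.2% (10.0 to 10.4) and 6.22% (6.05 to 6.38). Fosl1 stayed below 1% of the family in both, at 0.48% and 0.83%. Within the Jun family Junb went from 29.4% (29.2 to 29.6) to 34.7% (34.5 to 35.0), while Jun went from 36.0% to 32.9% and Jund from 34.6% to 32.3%. The families as wholes were at 1157 and 1298 CPM for Fos, and 2649 and 2775 CPM for Jun.

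Because the libraries differ in depth, shares of cells with a transcript are given for cells drawn down to 5000 UMIs each. Leaving out shallower cells kept 2447 PBS and 1327 cGAMP cells. A Fos UMI was found in 77.1% (75.4 to 78.7) and 88.5% (86.6 to 90.1) of them, an Egr1 UMI in 51.2% (49.2 to 53.2) and 63.6% (60.9 to 66.2), an Atf3 UMI in 58.3% (56.3 to 60.3) and 69.0% (66.5 to 71.5) and a Junb UMI in 88.1% (86.8 to 89.4) and 93.4% (92.0 to 94.7). Fosl2 went the other way, from 44.4% (42.4 to 46.4) to 32.9% (30.4 to 35.5). For Fosb (66.3% and 68.3%), Jun (89.2% and 90.7%), Jund (92.2% and 93.1%) and Ier2 (65.5% and 69.4%) the intervals overlapped.

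Fosl1 was found in 2.21% (1.66 to 2.87) of thinned cells after PBS, or 54 cells, and in 4.45% (at most 5.70) after cGAMP, or 59 cells. Lyz2, a leucocyte transcript that ECs should lack, was found in 2.37% and 6.10% of the same cells. The shares of Fosl1 alone therefore cannot tell its expression from background, and no difference between the libraries is read from them. The unthinned shares were 13.9% and 28.9% for Fosl1 and 13.5% and 38.4% for Lyz2. Where cells with a UMI of Ptprc, Lyz2, S100a8 or S100a9 were left out, Fosl1 was at 5.24 CPM in the remaining 2125 PBS cells and 9.55 CPM in the remaining 701 cGAMP cells, against 6.61 and 11.8 CPM in the cells with such a UMI. With Fosl1 counted, 5 of the 10 genes had a higher share after cGAMP with intervals apart and 1 had a lower share, beside 12.2% and 16.0% of the 9509 genes. Whether intervals of shares lie apart depends on the level of a gene, and the 9509 genes reach down to 5 CPM. The counts are therefore not like for like with these percentages, and nothing is read from the difference. At 15000 UMIs per cell, Junb was no longer among the 5. Without thinning, an Egr1 UMI was found in 79.1% and 90.3% of cells.

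The ECs were grouped into states without use of these genes, so that their levels did not themselves define the states. Neat1 and Nfkbia, which varied with them across cells, were not on the lists of genes left out. The states may therefore not be fully independent of the 10 genes. Clustering gave 9 clusters. A stalk-like cluster of 395 PBS and 342 cGAMP cells was led by the venous genes Ackr1 and Selp, with the immune genes Csf3 and Ubd among its top 10. The tip-like class held a larger cluster with Gal and Chga on top (727 PBS and 296 cGAMP cells) and a small one with the hypoxia-induced gene Bnip3 and Ankrd1 on top (47 and 23). The arterial class held a larger cluster with the connexin genes Gja5 and Gja4 on top (502 and 217) and a small one with Slc6a6 and Lpl (67 and 55). The proliferative cluster of 492 and 185 cells was led by Ube2c and Cenpf. Left unnamed were a cluster with Ung and Hells on top, beside genes of DNA replication (194 and 136 cells), one with Igfbp5 and Ctsh (47 and 54) and one with the interferon-stimulated genes Rsad2 and Cxcl10 (46 and 32). The Igfbp5 cluster had 14 of the 15 stalk-like markers raised, against 9 in the stalk-like cluster, but none among its 10 leading genes.

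The 10 genes together were highest in 2 small clusters of both libraries, whereas the lowest cluster was not the same in both. After PBS the Slc6a6 and Lpl arterial cluster had 10292 CPM and the Igfbp5 cluster 9064 CPM. The stalk-like cluster followed with 6979 CPM and the Gja5 arterial cluster with 6652 CPM. The interferon-led cluster had 4870 CPM, the Bnip3 tip-like cluster 4264 CPM and the Gal tip-like cluster 3827 CPM. The proliferative cluster had 3339 CPM and the replication cluster 3332 CPM, and only the intervals of these last neighbours in the order overlapped. After cGAMP the same 4 clusters were at the top, with 9929 CPM in the Igfbp5 cluster, 9037 CPM in the Slc6a6 cluster, 5985 CPM in the Gja5 cluster and 5936 CPM in the stalk-like cluster. The 5 others lay between 3583 and 4337 CPM. Of their 8 pairs of neighbours in the order, 3 overlapped in interval. The highest was 3.09 times the lowest cluster after PBS and 2.77 times after cGAMP.

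Single genes followed this order with exceptions. Egr1 stood out in the Slc6a6 arterial cluster, with 1409.6 CPM (1343 to 1478) after PBS and 1149 CPM (1093 to 1208) after cGAMP, beside 453 and 397 CPM in the Gja5 arterial cluster. Its highest level was 7.95 and 7.37 times its lowest, beside 3.12 and 2.94 times for Jun. Fos was highest in the Igfbp5 cluster, with 1804 CPM (1724 to 1887) and 2042 CPM (1970.1 to 2116), and Jun in the Slc6a6 cluster, with 2139 CPM (2058 to 2224) and 1753 CPM (1683 to 1825). Atf3 and Fosl2 were second highest in the Bnip3 tip-like cluster in both libraries, at 513 and 430.1 CPM for Atf3 and 227 and 161 CPM for Fosl2, where Fos, with 517 and 489 CPM, was below its library level. In both orders many neighbours overlapped in interval, 5 of 8 pairs for Atf3 and 6 of 8 for Fosl2 in either library.

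Fosl1 had another order, though 7 and 6 of its 8 neighbouring pairs of clusters overlapped in interval. It was highest in the Bnip3 tip-like cluster, with 28.2 CPM (20.2 to 38.4) after PBS and 38.4 CPM (26.9 to 53.2) after cGAMP, on 40 and 36 UMIs. In the stalk-like cluster it was at 1.97 CPM (1.21 to 3.05) and 7.64 CPM (6.30 to 9.17), and in the Gja5 arterial cluster at 2.04 CPM (1.37 to 2.91) and 8.19 CPM (6.39 to 10.3). The Bnip3 cluster also had the highest leucocyte marker level of the clusters after cGAMP, 798 CPM, and 91.0% of these 748 UMIs were in 1 cell. Without the cells that had a UMI of Ptprc, Lyz2, S100a8 or S100a9 its Fosl1 level was 28.7 CPM (19.6 to 40.5) in 39 PBS cells and 30.4 CPM (15.7 to 53.1) in 12 cGAMP cells.

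**Figure D2:**
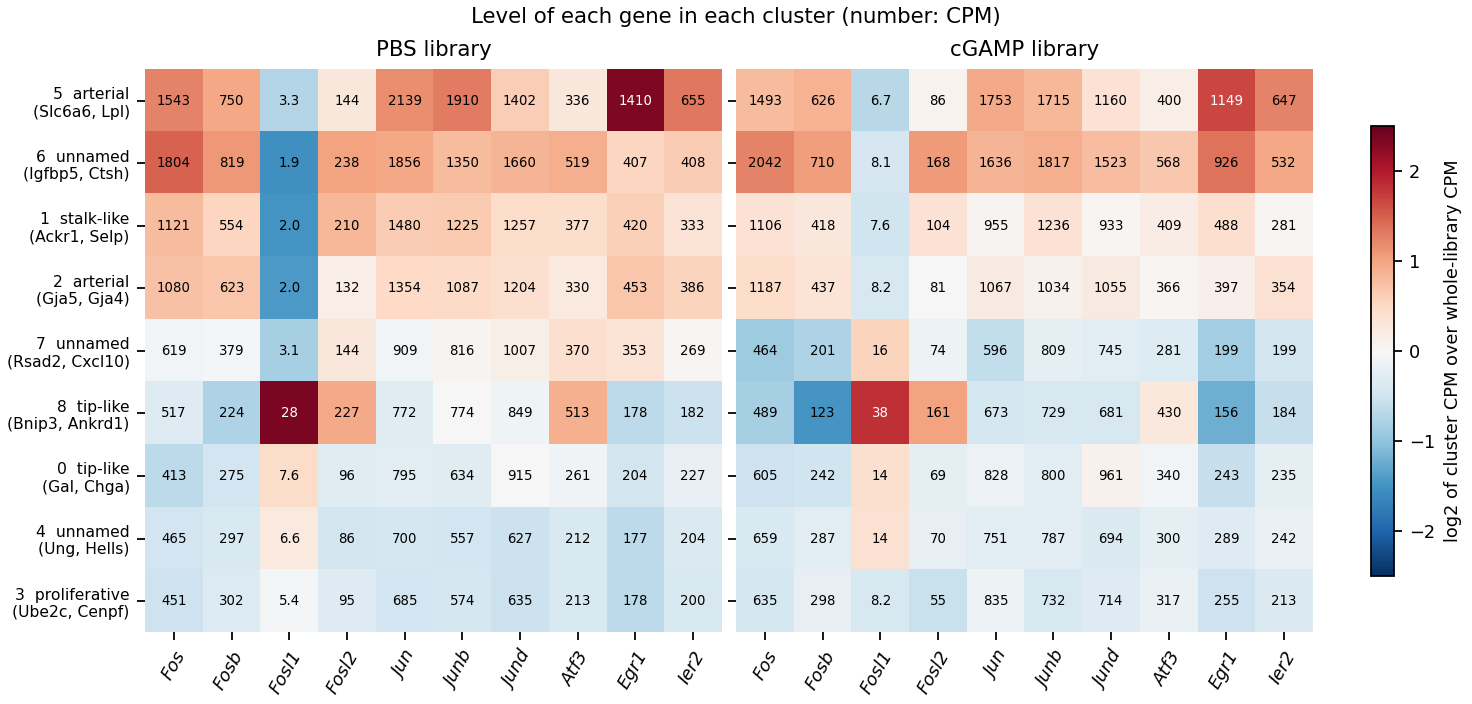
Level of each gene (columns) in each cluster (rows, with 2 leading genes) of the PBS (left) and cGAMP (right) libraries. Numbers are CPM and colours the log2 of the cluster's CPM over that of the whole library. The upper 4 rows lie above the library level in both libraries for all genes but Fosl1, which is highest in cluster 8 at 28.2 and 38.4 CPM. In places the excess is slight, as for Fosl2 in cluster 2 after cGAMP, at 81.4 CPM against 80.7 CPM.

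Depth and nuclear RNA differed between these clusters. The median PBS cell had 15163 UMIs in the Slc6a6 cluster, 19337 in the Igfbp5 cluster and 21572 in the stalk-like cluster, against 40346 in the proliferative and 40534 in the replication cluster. Malat1, a nuclear RNA, was at 18124 and 19951 CPM in the first 2 and at 7213 and 6539.6 CPM in the last 2 and at 23775 CPM in the Bnip3 tip-like cluster. Neat1, another nuclear RNA, was after PBS at 2079 CPM in the Igfbp5, 1049 CPM in the stalk-like, 992 CPM in the Slc6a6 and 903 CPM in the Gja5 cluster, the 4 clusters where the 10 genes were highest. It was at 432 CPM in the proliferative, 526 CPM in the replication and 394 CPM in the Bnip3 cluster. The summed heat shock list was at 10555 CPM in the Slc6a6, 8091 CPM in the Igfbp5, 8843 CPM in the stalk-like and 10929 CPM in the proliferative cluster. Much of this sum is Hspa8 and Hsp90ab1, which cells also make without stress, with 3255 and 3466 of 10421 CPM over the PBS library. Across cells, the mean r of the 16 heat shock genes with the 10 genes had a median of 0.03. It was highest for the stress-induced Hspa1a and Hspb1, at 0.21 each, and lowest for Hspd1, at -0.18. Among cells with 20000 to 60000 UMIs alone, the highest was 2.85 times the lowest cluster after PBS and 2.53 times after cGAMP. The part of depth, nuclear RNA and cell handling in the order was not tested.

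Within the clusters, the 10 genes together were higher after cGAMP in 4 and lower in 5. They were higher in the tip-like Gal cluster (log2 ratio 0.18), the proliferative (0.28), the replication (0.30) and the Igfbp5 cluster (0.13). They were lower in the stalk-like (-0.23), both arterial (-0.15 in the Gja5 and -0.19 in the Slc6a6 cluster), the interferon-led (-0.44) and the Bnip3 tip-like cluster (-0.22). By class, the log2 ratio was 0.16 (0.15 to 0.17) in tip-like, 0.28 (0.27 to 0.30) in proliferative, -0.23 (-0.25 to -0.22) in stalk-like and -0.12 (-0.13 to -0.10) in arterial ECs. The stalk-like value leaves out the Igfbp5 cluster, which was higher. At a resolution of 0.3, where the leading gene of the stalk-like cluster was Igfbp5, its value was -0.19. The sign of the arterial value turned without integration of the libraries, where it was 0.062, and in cells with 20000 to 60000 UMIs it was -0.024. The levels of the stalk-like and proliferative clusters, 6979 and 3339 CPM after PBS, were 5936 and 4062 CPM after cGAMP, and so lay closer together. Where the clusters were given equal weights in both libraries, the log2 ratio over all ECs was 0.048 in place of 0.13.

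Fosl1 was higher after cGAMP in each of the 9 clusters, by a log2 ratio of 0.45 to 2.35, with an interval above 0 in 6. Without the cells that had a UMI of Ptprc, Lyz2, S100a8 or S100a9 it was higher in 8, by little in the Bnip3 cluster (28.7 and 30.4 CPM), and lower in the Igfbp5 cluster, with 2.33 CPM on 2 UMIs after PBS and 1.27 CPM on 1 UMI after cGAMP. Fosb and Fosl2 were lower in each of the 9, Fosb by -0.02 to -0.92 with the interval below 0 in 7, and Fosl2 by -0.30 to -1.02 with the interval below 0 in all 9. Of the 9509 genes 10.6% were higher in every cluster and 12.7% lower in every cluster, so that these counts of 1 and 2 in 10 lie near the background. Fosl2 differed the most in the stalk-like cluster, from 209.9 CPM (201 to 219) to 104 CPM (98.7 to 109). Jun was also lower there, from 1480.3 CPM (1457 to 1504) to 955 CPM (939.7 to 971), while it was higher in the proliferative cluster, from 685 CPM (674 to 696) to 835 CPM (818 to 851).

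The other genes were higher in some states and lower in others. Fos was higher by 0.55 in the Gal tip-like, 0.49 in the proliferative and 0.50 in the replication cluster, and nearly level in the stalk-like (-0.02) and the Slc6a6 cluster (-0.05). Egr1 had the widest range, from 407 CPM (369.6 to 448) to 926 CPM (878 to 976) in the Igfbp5 cluster, a log2 ratio of 1.18, and from 353 CPM (327 to 381) to 199 CPM (176 to 223) in the interferon-led cluster, a log2 ratio of -0.83. Atf3 was higher in 7 and lower in 2 clusters, and Junb higher in 5 and lower in 4, with log2 ratios of 0.34 to 0.50 in the Gal tip-like, proliferative and replication clusters. Jund was lower in 6 clusters and Ier2 in 4. In the interferon-led cluster all of the genes but Fosl1 were lower after cGAMP, on 46 and 32 cells.

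**Figure D3:**
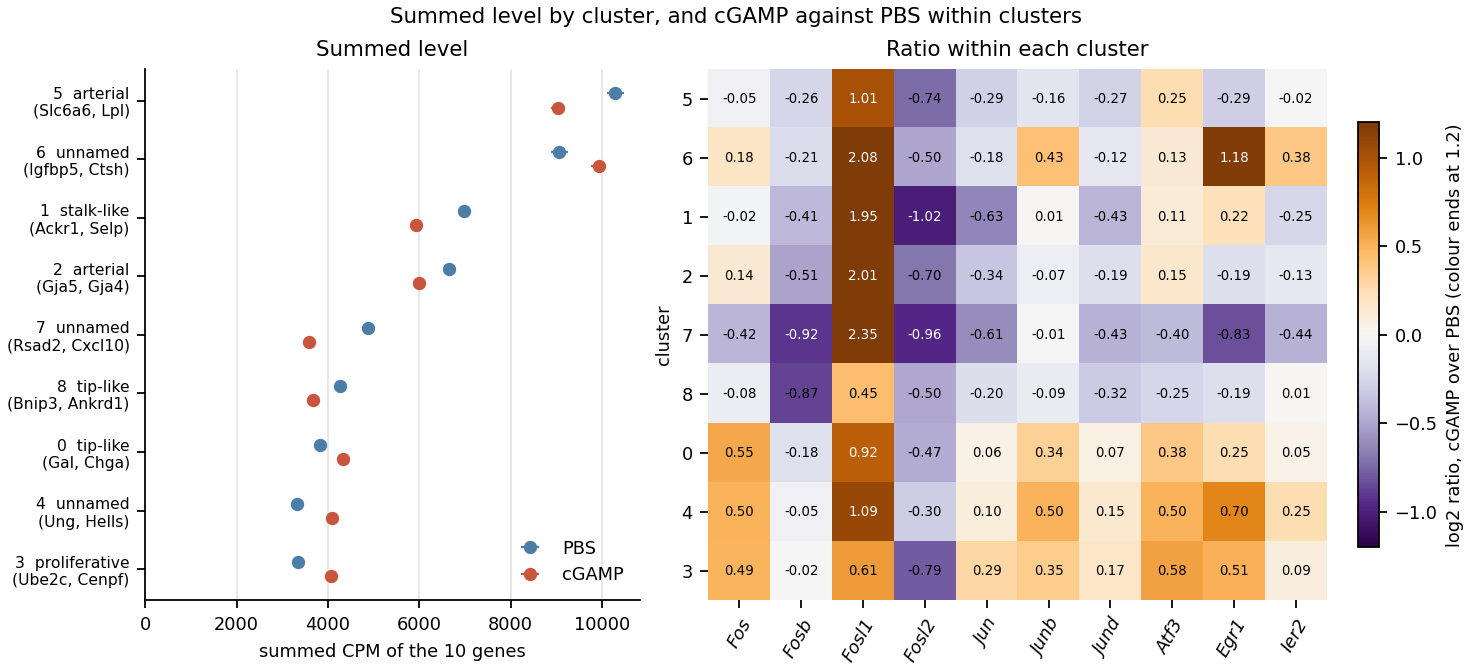
Left, summed CPM of the 10 genes in each cluster of the PBS (blue) and cGAMP (red) libraries, with exact 95% counting intervals. Right, log2 ratio of cGAMP over PBS for each gene within each cluster, where brown is higher after cGAMP and purple lower. The Fosl1 column is brown and the Fosl2 and Fosb columns purple in all 9 rows, and the rows of clusters 0, 4 and 3 are otherwise brown.

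Cells of 1 library differed widely in the group. The 10 genes took a median of 40.4 UMIs per 10000 in PBS cells and 47.2 in cGAMP cells. The libraries differed mostly in the lower part of the distribution. The 10th percentile was 12.6 and 19.6, whereas the 90th was 99.7 and 97.6. In thinned cells the variance over the mean of the sum (Fano factor) was 16.1 after PBS and 11.7 after cGAMP. Among single genes this factor was highest for Fos (5.99 and 4.57), Jun (5.02 and 4.13) and Egr1 (4.67 and 4.14). It was near 1, the value of plain counting noise, for Fosl1 (1.05 and 1.17) and Fosl2 (1.28 and 1.13), which had the fewest UMIs of the 10. The 5% of cells with most Egr1 held 33.2% and 28.4% of its UMIs. A UMI of the Fos family was found in 90.4% and 94.9% of thinned cells and one of the Jun family in 99.1% and 99.6%. The median cell had UMIs of 7 of the 10 genes in both libraries.

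**Figure D4:**
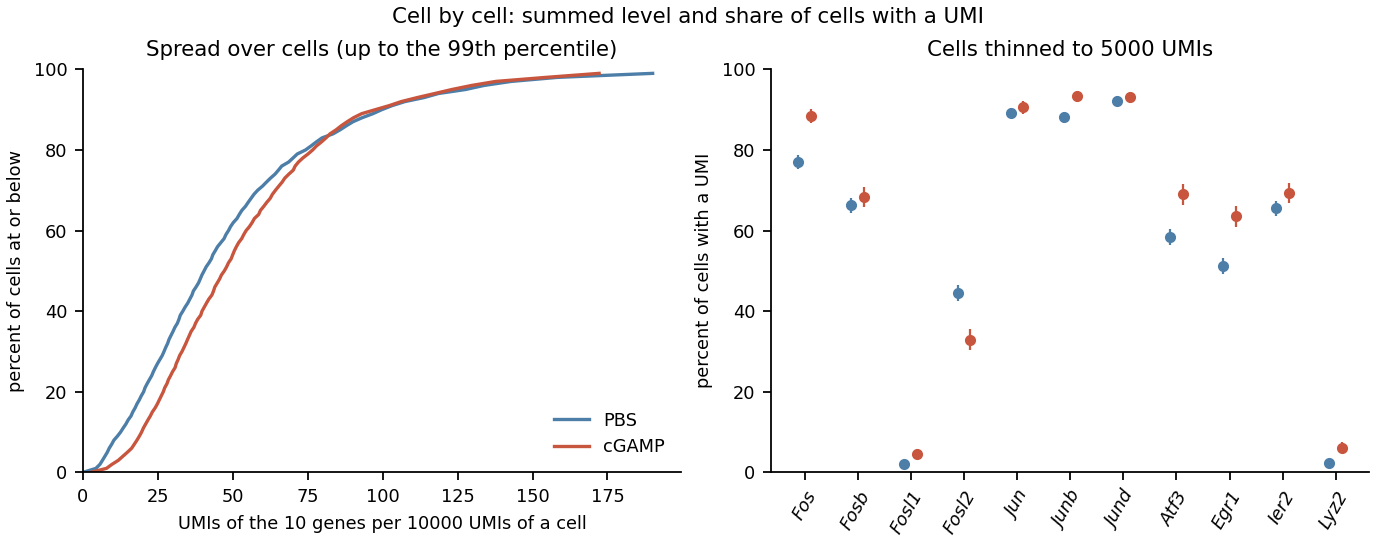
Left, percent of cells at or below a given number of UMIs of the 10 genes per 10000 UMIs of the cell, up to the 99th percentile. Right, percent of cells thinned to 5000 UMIs with a UMI of each gene, with exact 95% intervals, and Lyz2 as a transcript that ECs should lack. PBS is blue and cGAMP red. The curves are apart below the median and meet near the 90th percentile, and Fosl1 lies at the level of Lyz2.

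Most of the genes varied together from cell to cell. Correlations are given as descriptions, over 2447 PBS and 1327 cGAMP thinned cells that share a library and a depth. Among the 28 pairs without Fosl1 and Fosl2, Pearson's r of the natural log values ran from 0.17 to 0.58 after PBS and from 0.14 to 0.47 after cGAMP, and it was higher after PBS in 27 of them. By the mean of the libraries the closest pairs were Fos with Fosb (0.58 and 0.47), Fos with Jun (0.58 and 0.45) and Jun with Jund (0.52 and 0.46). The 8 pairs of Fosl2 with the rest were weaker, at 0.12 to 0.23 and 0.04 to 0.15. Fosl2 had a mean of only 0.65 and 0.42 UMIs per thinned cell, against 3.63 and 4.77 for Fos. The part of low counts in its weaker pairs was not tested. The 9 pairs of Fosl1 lay between -0.06 and 0.05, which at its counts says little. Within states the relation was mostly weaker. The median of all 45 pairs was 0.31 and 0.24 over all cells, 0.17 and 0.14 within the Gal tip-like cluster and 0.20 and 0.14 within the proliferative cluster. Exceptions after PBS were the Slc6a6 arterial cluster, with 0.49 on 59 cells, and the Gja5 arterial cluster, with 0.35 (0.22 after cGAMP) and an r of Fos with Fosb of 0.63 and 0.42. The sum had an r of -0.05 and -0.11 with the log of UMIs per cell, and of -0.08 and 0.02 with the mitochondrial share. An r near 0 can hide a relation that is not a straight line. In unthinned cells with 10000 to 20000 UMIs the sum was at 6465 CPM after PBS and 7133 CPM after cGAMP. Below 10000 UMIs it was at 5300 and 4987 CPM, and above 60000 UMIs at 3986.5 and 4494 CPM. The part of depth in these levels was not tested.

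**Figure D5:**
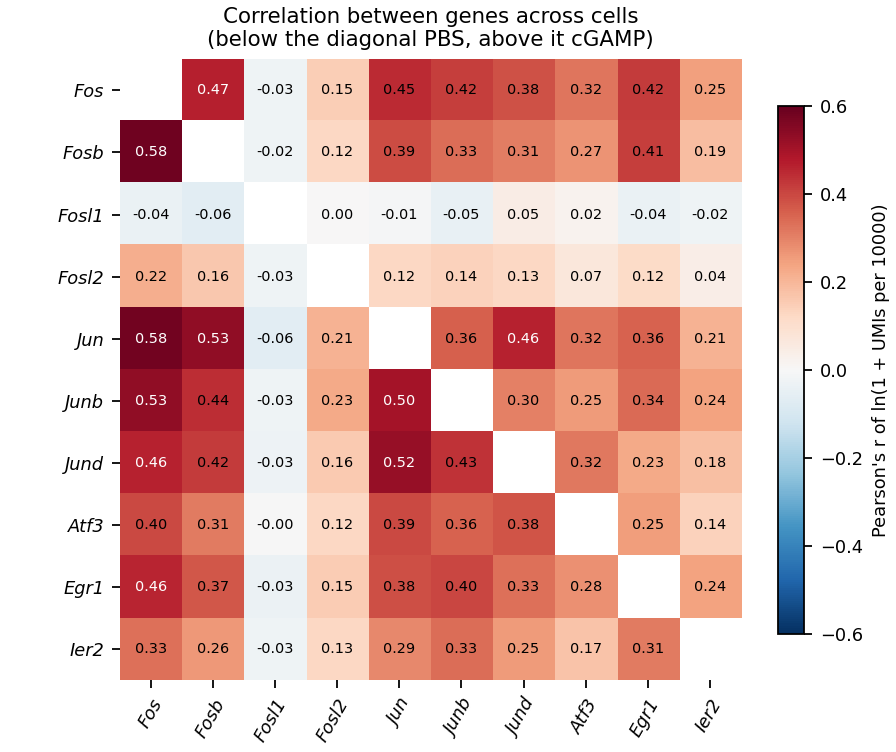
Pearson's r between the genes across thinned cells of the PBS library (below the diagonal, 2447 cells) and of the cGAMP library (above it, 1327 cells). Fos, Fosb, Jun, Junb, Jund and Egr1 form a red block with values up to 0.58, and the Fosl1 row and column are close to 0.

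Outside the 10 genes, those most like their sum across cells were named by the mean r of the libraries, among 6036 genes with at least 20 CPM, whose median r was close to 0 and whose 99th percentile was 0.21. They were the nuclear RNA Neat1 (0.52), Zfp36 (0.51), which encodes a protein that destabilises short-lived transcripts, the NF-kB inhibitor Nfkbia (0.48), Ier3 (0.44), the MAPK phosphatase Dusp1 (0.42), Klf4 (0.40), Nfkbiz (0.37), Btg2 (0.37), Malat1 (0.36) and Pnrc1 (0.33). Zfp36, Ier3, Klf4 and Btg2 are on the list of other immediate early genes read below, and Dusp1 is on that of the MAPK cascade and its feedback. Neat1 and Malat1 are retained in the nucleus, and their part in the relation was not tested. The levels of these genes after cGAMP went both ways, with log2 ratios of 0.87 for Ier3, 0.53 for Nfkbia and 0.49 for Zfp36, of 0.01 for Klf4, and of -0.31 for Btg2 and -0.35 for Neat1.

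Genes around AP-1 were read from lists, at the same level filter, beside the background of 4.53% higher and 7.41% lower by 1.5-fold. Of 18 other bZIP partners 3 were higher and none lower, with a median log2 ratio of -0.02. The highest ratios were those of Batf2 (2.29 and 10.3 CPM, log2 ratio 2.17) and Batf3 (9.33 and 18.2 CPM, 0.97). The lowest ratios were those of Creb1 and Atf7 (-0.35 each) and Mafk (-0.27). Batf2 and Batf3 encode partners of Jun proteins in immune cells. The summed leucocyte markers were also higher, at 23.9 and 84.2 CPM, with Cd74 alone at 6.97 and 35.0 CPM. Without integration of the libraries, Cd74 was among the 10 leading genes of a stalk-like cluster of 19 PBS and 396 cGAMP cells. Markers other than Cd74 were higher too, such as S100a8 (0.34 and 6.68 CPM) and S100a9 (0.27 and 9.96 CPM). The part of leucocytes in the sum and in the ratios of Batf2 and Batf3 was not tested.

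Of 31 other immediate early genes 6 were higher and 1 lower, with a median log2 ratio of 0.02. Highest were Csrnp1 (36.5 and 68.5 CPM, 0.91), Ier3 (419.6 and 764 CPM, 0.87) and Myc (25.4 and 42.2 CPM, 0.73). The lowest were the growth arrest gene Gadd45a (23.3 and 12.2 CPM, -0.93), Klf10 (-0.48) and Zfp36l1 (-0.37). Of 30 genes of the MAPK cascade and its feedback, which carries many signals to AP-1, 1 was higher and 2 lower, with a median of -0.09. The kinase gene Map3k8 (0.68), the phosphatase gene Dusp2 (0.51) and the feedback inhibitor Spry4 (0.48) had the highest ratios, and Map2k6 (-1.11), Elk4 (-0.60) and Mapk3 (-0.43) the lowest.

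Of 17 genes described as AP-1 targets 6 were higher and none lower, and their median log2 ratio was 0.48, beside -0.08 over all genes tested. Highest were the cytokine gene Il6 (32.9 and 92.8 CPM), the protease inhibitor Timp1 (89.0 and 250.1 CPM, 1.49) and the urokinase receptor Plaur (98.0 and 230.2 CPM, 1.23). The lowest were Vim (8272 and 5963 CPM, -0.47), Mmp14 (0.02) and Edn1 (0.06). Il6 and Plaur were known to be higher in this library when the list was written, and many of its genes also answer to NF-kB or interferon, so that its count is no independent measure of AP-1. Across cells, the mean r with the sum of the 10 genes was -0.10 for Timp1, -0.11 for Plaur and 0.19 for Il6. Of 16 heat shock genes none was higher or lower by 1.5-fold, with a median of 0.12. Hspa1a (0.42), Hspe1 (0.41) and Hspa1b (0.37) had the highest ratios and Dnajb4 (-0.33), Bag3 (-0.26) and Hsph1 (-0.19) the lowest. Hspa1a and Hspa1b are near-identical copies, so that their separate counts are uncertain.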

How the data were processed

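The data are 2 scRNA-seq libraries, PBS and cGAMP, from 1 mouse each. Per the labels, reads were processed with Cell Ranger 3.0.0 and Seurat 3.1.1 on mm10, and per the methods cells with fewer than 500 genes or over 10% mitochondrial UMIs, genes found in fewer than 3 cells and non-endothelial clusters were removed. The authors deposited, for each cell and gene, the natural log of 1 plus UMIs per 10000, in place of the raw counts the design had assumed. For recovery of UMIs the log was inverted and each cell scaled by its own smallest increment, after which all 13483883 PBS and 7904326 cGAMP entries above 0 were whole to a tolerance of 0.01. The filters could not be relaxed, and doublets were not removed.

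UMIs were summed per library or cluster as CPM with exact Poisson intervals, ratios have the exact binomial interval of the split of UMIs, and shares have Clopper-Pearson intervals. With 1 library per condition no test was made. UMIs of a tag at the end of a transcript depend little on its length, and genes were set against each other only as shares of a family's UMIs, without correction for length. Clusters come from Seurat 5.3.0 (R 4.3.3) on 2500 variable genes, integration anchors and 30 principal components, at a resolution of 0.5. The 10 genes, the other bZIP, immediate early and heat shock genes and variable genes that differed 2-fold between the libraries were left out, which kept 1750 genes. A cluster was matched to the class with the largest share of its markers raised 2-fold, and took that name where at least 3 were raised, at least 1 marker of the class was among its 10 leading genes and no other class had more there. This rule was given its thresholds with the clusters in view, and rebuilt names need not be those of the study. Thinning drew 5000 UMIs per cell and left out 70 PBS and 13 cGAMP cells. Promoter windows are from RefSeq on GRCm38.p6 and gene coordinates from GENCODE vM21 on GRCm38. The genes and lists were chosen with earlier results of these data known. Of each list the 3 highest and the 3 lowest ratios are named, other than 1 gene that is not reported here, and of the genes outside it the 10 most correlated with the sum. The ratio and interval script was tested on simulated counts. Python 3.11.15, numpy 2.4.6, scipy 1.17.1, pandas 2.3.3 and matplotlib 3.10.9 were used.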

Additional observations from a re-analysis of the deposited data

Results flagged for a closer look

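The summed level of the 10 genes moved in opposite directions between EC classes, with a log2 ratio of cGAMP over PBS of 0.16 in tip-like and 0.28 in proliferative ECs, and of -0.23 in stalk-like and -0.12 in arterial ECs. Egr1 had a log2 ratio of 1.18 in the cluster led by Igfbp5 and of -0.83 in the interferon-led cluster. Each class or cluster has 1 library for each condition, and these differences between them were not tested.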

How the results depend on the processing

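Every value rests on 1 mouse for each condition, and what is stable across the settings below is stable for these 2 libraries only. Fosl1 kept a difference of at least 1.5-fold in all 9 other settings, with log2 ratios from 0.80 to 1.10. Fosl2 was between -0.66 and -0.48 and passed 1.5-fold, which made 1 gene lower, with cluster proportions held equal and in cells thinned to 5000 UMIs. At 2-fold the counts were 0 higher and 0 lower. Fos, Fosb, Junb, Atf3 and Egr1 kept their signs in all 9. Jun turned to 0.0065 under median-of-ratios scaling and to 0.0058 in cells with 20000 to 60000 UMIs, Jund to 0.041 and 0.057, and Ier2 to -0.0043 with proportions held equal.

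The summed log2 ratio was 0.11 as a mean over cells and in thinned cells, 0.20 under median-of-ratios scaling, 0.048 with proportions held equal, 0.12 in cells with Pecam1 and Cdh5 and no Ptprc, 0.21 in cells with 20000 to 60000 UMIs, 0.067 without the proliferative cluster and 0.16 without cells holding leucocyte UMIs, a setting chosen after seeing the data. Within stalk-like ECs it was -0.19 at resolution 0.3, -0.20 with all variable genes and -0.32 without integration, and in tip-like ECs 0.13 at resolution 0.3, 0.22 at 1.2 and 0.19 with all variable genes. In arterial ECs it was -0.13 at 0.3, -0.085 at 1.2, -0.14 with all variable genes and 0.062 without integration. Settings added after seeing the data gave, in the order stalk-like, tip-like, proliferative, arterial, -0.13, 0.18, 0.20 and -0.024 in cells with 20000 to 60000 UMIs and -0.16, 0.23, 0.35 and -0.046 under median-of-ratios scaling, and without leucocyte UMIs -0.21 in stalk-like and 0.19 in tip-like ECs. The causes were not tested. Also added, cells with 20000 to 60000 UMIs gave 2.85 and 2.53 for the highest over the lowest cluster, and thinning to 15000 UMIs a median r of 0.41 and 0.34 over all 45 pairs (0.31 and 0.24 at 5000). Within single clusters the median r moved after PBS to 0.17 (Gal tip-like), 0.23 (stalk-like), 0.20 (proliferative), 0.22 (replication) and 0.49 (Slc6a6 arterial), and after cGAMP to 0.14, 0.18, 0.14 and 0.16 in the first 4 of these and 0.17 in the Igfbp5 cluster. No paired analysis was possible because each condition has 1 library.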
